A study of Mus musculus with 33 samples.

Results

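RNA-seq of Setdb1 Δ/Δ cells, in which the H3K9 methyltransferase SETDB1 was inactivated, was set against that of the Setdb1 F/F embryonic stem cells (ESCs) from which they came. The comparison took the 3 libraries labelled as Setdb1 knockout and the 3 labelled as floxed, 6 of the 33 libraries of the series, and all 55487 genes of the deposited table. All 6 libraries were labelled as mouse ESCs of the C57BL/6 strain. In Setdb1 F/F ESCs, loxP sites had been placed by CRISPR/Cas9 in the introns that flank exons 11 to 13 of Setdb1, so that Cre recombinase removes these exons. Setdb1 Δ/Δ cells carried the deletion. The study gives a general time of assay after Cre transfection and describes lentiviral Cre for Setdb1 F/F ESCs in an RT-qPCR assay, but ties neither to these libraries. Whether the floxed cells went through the same treatment and the number of clones are not given in the sources used here, so an effect of Cre itself or of a clone cannot be told apart from that of the deletion. Cells of both groups had been grown with LIF and serum on mitotically inactivated fibroblast feeders, which were depleted by letting them settle on gelatin.

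SETDB1 trimethylates lysine 9 of histone H3 (H3K9me3), a mark of silent chromatin. It is brought to DNA by zinc finger proteins through the corepressor TRIM28, is stabilised by its partner ATF7IP, and is known in ESCs for silencing endogenous retroviruses and germline genes. The mark is read by the HP1 proteins, which are encoded by Cbx5 (HP1α), Cbx1 (HP1β) and Cbx3 (HP1γ).

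The targeted gene was read first. Setdb1 (ENSMUSG00000015697) lies on the minus strand at chr3:95323525-95357202 of GRCm38 (GENCODE M21), and its main transcript has 22 exons. Exon 11 lies at chr3:95340162-95340312, exon 12 at chr3:95339907-95340065 and exon 13 at chr3:95338346-95339032. They hold 997 of the 4658 transcript bases (21.4%). All 997 are coding, and 997 leaves a remainder of 1 after division by 3, so a joining of exon 10 to exon 14 shifts the reading frame. The study's 2 guide RNAs are shown because they set the ends of the deleted stretch. Capitals mark the PAM, the short motif next to a guide that Cas9 needs, for the downstream guide:
upstream guide: tggcatgcacaatcaccgcc
downstream guide: agttattatgaagcctaggcTGG
The downstream guide matched chr3:95338089-95338108 on the plus strand, within the intron after exon 13 (chr3:95337266-95338345), in a transcript that retains this intron. The upstream guide was matched to no transcript, and its position was not analysed here.

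Setdb1 mRNA was present in both groups. It had 139, 136 and 134 CPM (counts per 1000000 counts of a library after scaling) in floxed libraries 1 to 3, and 74, 70.8 and 70.0 CPM in knockout libraries 1 to 3. Every knockout library lay below every floxed library. The means were 136 ± 2.69 CPM and 71.6 ± 2.09 CPM (SD, n = 3) and had a log2 fold change of −0.93 (standard error, SE, 0.034; adjusted p = 4.03e-14). The test was the quasi-likelihood F-test of edgeR, and p-values were adjusted over all tested genes by the Benjamini-Hochberg method. It did not reach the fold threshold used for calls, an absolute log2 fold change over 1 together with an adjusted p under 0.05. The counts are sums over all exons of a gene and do not show the deleted exons on their own, so this value does not measure how complete the deletion was.

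Of 16457 genes with enough counts to be tested, 3048 were called higher in Setdb1 Δ/Δ cells (18.5%) and 1870 lower (11.4%). Libraries of 1 group lay close together: total counts ran from 17640304 to 21440372, the biological coefficient of variation was 0.02903, and 3022 of the genes called higher and 1855 of those called lower had no overlap between the 3 libraries of each group. At this spread 12990 genes had an adjusted p under 0.05 whatever their fold. Of all 16457 tested genes, called or not, 13207 had no overlap between the groups, so that separated groups were the common case. The study's methods call the 3 libraries of a group biological replicates, without saying how their cultures were kept apart, and p-values measure the spread between these libraries. In bulk RNA, a change in the share of cells that express a gene and a change in its level per cell cannot be told apart. The median log2 fold change over all tested genes was 0.01. The direction of calls depended in part on scaling. The TMM factors, which set libraries to a common level over most genes, were 0.910 to 0.913 in floxed and 1.095 to 1.1 in knockout libraries. When libraries were scaled by their total counts alone, the median of all genes moved up by 0.27 and the split of calls from 3048 higher and 1870 lower (62.0% of calls higher) to 3811 and 1229 (75.6%). Log2 fold changes below are those of the TMM scale. Counts of calls in each gene list below are to be read beside the shares of all tested genes, 18.5% higher and 11.4% lower.

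**Figure D1:**
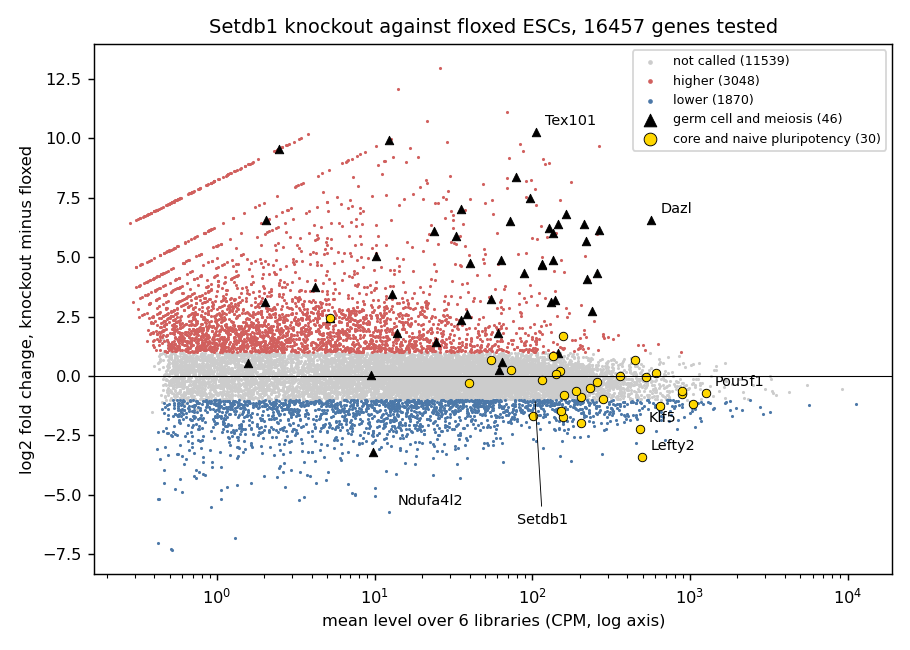
Log2 fold change (knockout minus floxed) of each of the 16457 tested genes against its mean level over the 6 libraries in CPM on a log axis, with 3048 genes called higher in red, 1870 called lower in blue, 46 germ cell and meiosis genes as black triangles and 30 pluripotency genes as yellow circles. Most black triangles lie above 1, up to Tex101 at 10.24, while the yellow circles lie between −3.40 (Lefty2) and 2.45 (Dppa3).

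Many of the genes called higher were nearly silent in floxed cells. Of the 3048 genes, 117 had no count in any floxed library and another 261 had a mean of at most 0.1 CPM. These 378 genes became 1010 with DESeq2, which was run on all 29715 genes with a count and not on the 16457 that passed the filter. They became 0 where at least 10 counts were required in every library, and 594 and 573 without floxed library 1 and floxed library 3. A further 1277 lay between 0.1 and 1 CPM, 1025 between 1 and 10 CPM, 345 between 10 and 100 CPM and 23 over 100 CPM. Of the 1870 genes called lower, 398 lay over 100 CPM in floxed cells and 741 between 10 and 100 CPM. A gene under the detection filter in floxed cells was tested only when it was high in the knockout, so it could be called in 1 direction alone. Of protein-coding genes 15.3% were called higher (2155 of 14085), of lincRNA genes 47.8% (250 of 523), of unprocessed pseudogenes 48.7% (56 of 115) and of processed pseudogenes 38.4% (196 of 510). The shares called lower were 11.4%, 10.3%, 4.35% and 16.7% in the same order. How many genes of each type passed the filter through the knockout libraries alone was not counted, so the shares called higher may include genes that could only rise.

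Among the 6 H3K9 methyltransferase genes, 1 was called higher and 2 lower, with a median log2 fold change of −0.36, where 18.5% and 11.4% of all tested genes were called. The 6 include Setdb1, the deleted gene, at −0.93, so this median is not that of the other enzymes alone. Ehmt2, which encodes the H3K9 dimethyltransferase G9a, had 229, 225 and 231 CPM in floxed and 76.5, 78.9 and 79.9 CPM in knockout libraries, with no overlap between groups. It fell, with a log2 fold change of −1.54 (SE 0.03, edgeR adjusted p = 5.15e-18). Its partner Ehmt1 (GLP) had 101 ± 2.26 CPM and 116 ± 3.16 CPM (SD, n = 3) and had a log2 fold change of 0.21. Suv39h2, an enzyme that trimethylates H3K9 in pericentromeric chromatin, had 48.5, 36.6 and 36 CPM in floxed and 11.4, 16 and 10.5 CPM in knockout libraries. Both groups of Suv39h2 values were spread more widely than those of the other enzymes but did not overlap, and the gene fell with a log2 fold change of −1.68. The paralog Suv39h1 had a log2 fold change of 0.41 and was not called. Setdb2, the paralog of Setdb1, rose from 25.5 ± 0.793 CPM to 55.9 ± 4.68 CPM (SD, n = 3) and had a log2 fold change of 1.13 (edgeR adjusted p = 1.29e-11).

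None of the 3 HP1 genes was called. Cbx5 had 555, 544 and 569 CPM in floxed and 414, 419.7 and 424 CPM in knockout libraries. Cbx1 had 179, 179.8 and 172 CPM in floxed and 117, 118 and 115 CPM in knockout libraries. Cbx3 had 129, 133 and 126 CPM in floxed and 77.6, 77.4 and 74.3 CPM in knockout libraries. For each of the 3 genes all knockout libraries lay below all floxed libraries, with log2 fold changes of −0.41 for Cbx5, −0.60 for Cbx1 and −0.76 for Cbx3. Their adjusted p values (edgeR) were 1.22e-11, 2.68e-12 and 7.07e-13, and all 3 folds lay under the threshold, and DESeq2 called none of the 3 either. With total-count scaling the median of the 3 log2 fold changes went from −0.60 to −0.33.

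Genes for proteins that act with SETDB1 gave 4 calls higher and 1 lower among 19, where 18.5% and 11.4% of all tested genes were called, with a median log2 fold change of 0.54. With total-count scaling the calls were 6 higher and 0 lower. Atf7ip, which encodes the cofactor that protects SETDB1 from degradation, had 87, 87.5 and 90.6 CPM in floxed and 342, 325 and 336 CPM in knockout libraries. The groups lay far apart, and Atf7ip rose with a log2 fold change of 1.92 (SE 0.029, edgeR adjusted p = 2.01e-19). Resf1, which encodes a retroelement silencing factor, rose from 148 ± 2 CPM to 456 ± 12.3 CPM (SD, n = 3) and had a log2 fold change of 1.62. Zfp809, which encodes a zinc finger protein that recognises a retroviral primer binding site, rose by 1.46 on the log2 scale. Mphosph8, a reader of H3K9me3 in the HUSH silencing complex, rose by 1.19. The other HUSH genes Tasor (0.56) and Pphln1 (0.74) lay under the threshold. Trim28, which encodes the corepressor named above, had 1355 ± 19.2 CPM and 1965 ± 59.8 CPM (SD, n = 3) and had a log2 fold change of 0.54 that was not called. Zfp57, which encodes the zinc finger protein that holds methylation at imprinted loci, fell from 717 ± 11.5 CPM to 302 ± 6.72 CPM (SD, n = 3). Its log2 fold change of −1.25 became −0.98, under the threshold, with total-count scaling.

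The next 3 lists are set beside 18.5% of all tested genes called higher and 11.4% called lower. Of 9 genes of DNA methylation and TET oxidation, only 1 was called. Dnmt3l, which encodes a catalytically inactive partner of the de novo DNA methyltransferases, had 47.9, 43.6 and 43.5 CPM in floxed and 199, 194 and 200.1 CPM in knockout libraries. It rose with a log2 fold change of 2.13 (edgeR adjusted p = 1.67e-18), while Dnmt3a was at 0.45, Dnmt3b at −0.97 and the maintenance enzyme Dnmt1 at −0.14. The value of Dnmt1 turned to 0.12 with total-count scaling. Of 11 H3K9 demethylase genes only Kdm4d was called. Kdm4d rose from 0.13 ± 0.0208 CPM to 1.65 ± 0.0766 CPM (SD, n = 3) and passed the filter through the knockout libraries alone. Of 13 genes of PRC1.6, a Polycomb complex that silences germline genes in ESCs, E2f6 rose (1.07) and Tfdp1 fell (−1.03). The other 11 were not called, among them Mga at −0.72, Pcgf6 at −0.68 and L3mbtl2 at −0.03. Tfdp1 left the calls with total-count scaling, at −0.76, and L3mbtl2 turned to 0.23.

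**Figure D2:**
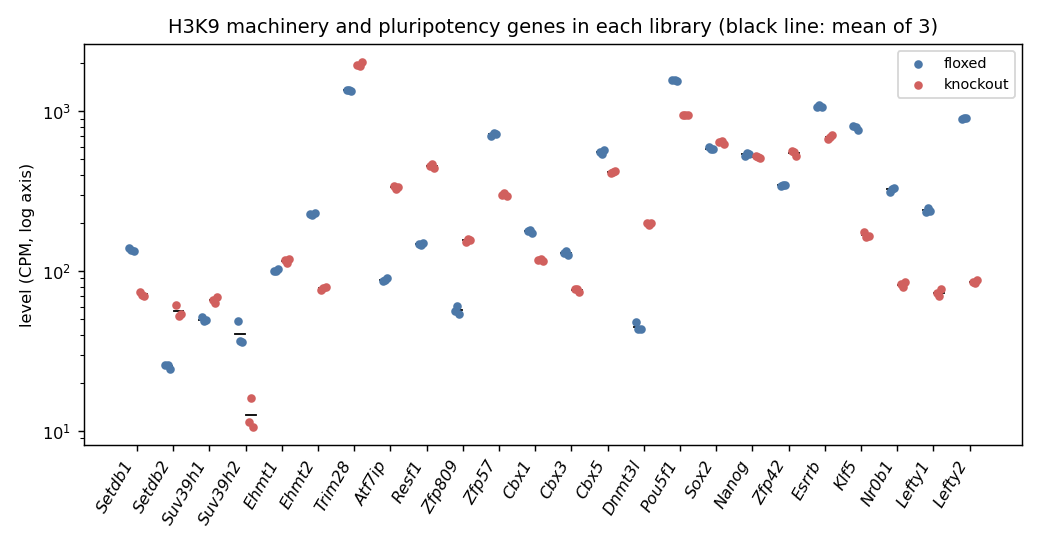
Level of 24 genes of the H3K9 machinery and of pluripotency in each of 3 floxed (blue) and 3 knockout (red) libraries, in CPM on a log axis, with the mean of 3 as a black line. Ehmt2, Suv39h2, Zfp57, Klf5, Nr0b1, Lefty1 and Lefty2 were lower in all 3 knockout libraries, Atf7ip, Resf1, Zfp809 and Dnmt3l were higher, and Sox2 and Nanog differed least.

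The cell type label was checked against ESC markers. Pou5f1, which encodes OCT4, had 1579, 1572 and 1555 CPM in floxed and 951, 944 and 955 CPM in knockout libraries. The groups did not overlap, and the log2 fold change was −0.72 (SE 0.017, edgeR adjusted p = 6.77e-17), under the fold threshold. Sox2 had 598, 579 and 577 CPM in floxed and 645, 655 and 624 CPM in knockout libraries, giving a log2 fold change of 0.13. Nanog had 528, 549 and 542 CPM in floxed and 524, 515 and 514 CPM in knockout libraries, giving a log2 fold change of −0.06 that turned to 0.21 with total-count scaling. Zfp42 (REX1) was at 0.67 and Esrrb at −0.64, and neither was called. All 5 genes were thus expressed in both groups. Of the other ESC markers set for this check, Dppa5a and Fgf4 were called lower, as given below, and Utf1 was at −0.26. Klf4 and Tdgf1 are not reported here.

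Of 30 genes of core and naive pluripotency, 8 were called lower and 2 higher, beside 11.4% and 18.5% of all tested genes. Their median log2 fold change was −0.56. The largest fall was that of Lefty2, which encodes an antagonist of Nodal signalling. Lefty2 had 900.5, 908 and 912 CPM in floxed and 85.9, 84.1 and 88.2 CPM in knockout libraries, giving a log2 fold change of −3.40 (SE 0.024, edgeR adjusted p = 3.15e-23). Its neighbour Lefty1 fell (−1.71), whereas Nodal itself was at 0.69 and was not called. Klf5, a factor of the naive network, had 805, 796 and 769.8 CPM in floxed and 175, 165 and 165 CPM in knockout libraries. Klf5 fell with a log2 fold change of −2.23 (edgeR adjusted p = 1.08e-20). Nr0b1 (DAX1), a partner of OCT4, fell from 325 ± 9.04 CPM to 82.4 ± 3.03 CPM (SD, n = 3) and had a log2 fold change of −1.98. The other falls were Tcl1 (−1.70), Fgf4 (−1.47), Dppa5a (−1.26) and Tfcp2l1 (−1.20). The rises were Dppa3 (2.45), from 1.62 ± 0.705 CPM to 8.77 ± 0.315 CPM (SD, n = 3), and Fbxo15 (1.67), from 74.3 ± 1.04 CPM to 237 ± 6.89 CPM (SD, n = 3). With total-count scaling 6 members were lower and 3 higher, and Dppa5a and Tfcp2l1 were among those that left the calls. Without the fold threshold 20 members were lower and 9 higher.

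Genes of formative and primed pluripotency, the states that follow the naive one, moved in both directions. Of 11 tested, 3 were called higher and 4 lower, beside 18.5% and 11.4% of all tested genes. Of the 11, 2 had passed the filter through the knockout libraries alone. Tcf15, a bHLH factor, had 74.5, 53.8 and 44 CPM in floxed and 8.04, 6.51 and 6.15 CPM in knockout libraries, and it fell by 3.07 on the log2 scale. Pou3f1 (OCT6) fell from 9.61 ± 1.48 CPM to 1.5 ± 0.238 CPM (SD, n = 3), and Foxd3 from 34.6 ± 3.39 CPM to 6.32 ± 0.31 CPM (SD, n = 3). Grhl2, an epithelial factor, had a log2 fold change of −1.98. Zic2 rose from 4.77 ± 0.213 CPM to 19.1 ± 1.63 CPM (SD, n = 3), and Lef1, a factor of WNT signalling, from 0.226 ± 0.155 CPM to 4.46 ± 0.288 CPM (SD, n = 3). Sall2 was called at 1.02 but lost the call when floxed library 3, knockout library 1 or knockout library 2 was left out, at values of 0.89 to 0.99. Fgf5 had too few counts to be tested.

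Germ cell and meiosis genes were mostly higher in Setdb1 Δ/Δ cells. Of 47 genes listed, 46 were tested, 40 were called higher and 1 lower, with a median log2 fold change of 4.68 beside 0.01 over all tested genes. Of the 46, 11 passed the filter through the knockout libraries alone and could only rise. The other 35 gave 29 calls higher and 1 lower, with a median of 4.09. Summed over the list, the level went from 567 to 585 CPM in floxed libraries to 8099 to 8309 CPM in knockout libraries. The list was drawn up with earlier results of these data known, so its count is no independent evidence.

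The promoters of 6 genes of the list that rose are printed to show the sequence in front of genes that were low in floxed cells and among the largest rises of the list. Each line gives 250 bases before the RefSeq start of the gene (GRCm38.p6), 5′ to 3′ on its own strand, with capitals for CACGTG, an E-box that reads the same on both strands, and for GGCGGGA or its complement TCCCGCC, an E2F-type site. Tex101 lies at chr7:24672051-24672300 (minus), Dazl at chr17:50293621-50293870 (minus), Stra8 at chr6:34920698-34920947 (plus), Taf7l at chrX:134476491-134476740 (minus), Mael at chr1:166238745-166238994 (minus) and Tdrd9 at chr12:111971309-111971558 (plus).
Tex101: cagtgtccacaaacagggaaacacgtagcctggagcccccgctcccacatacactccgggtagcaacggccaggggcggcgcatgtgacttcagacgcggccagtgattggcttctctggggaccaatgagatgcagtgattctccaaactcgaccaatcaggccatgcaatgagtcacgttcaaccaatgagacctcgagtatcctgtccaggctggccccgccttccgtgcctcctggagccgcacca
Dazl: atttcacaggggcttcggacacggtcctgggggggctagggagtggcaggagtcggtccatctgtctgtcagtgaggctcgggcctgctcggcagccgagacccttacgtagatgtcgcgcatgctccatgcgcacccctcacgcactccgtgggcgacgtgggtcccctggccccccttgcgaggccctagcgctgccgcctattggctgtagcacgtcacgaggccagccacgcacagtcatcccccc
Stra8: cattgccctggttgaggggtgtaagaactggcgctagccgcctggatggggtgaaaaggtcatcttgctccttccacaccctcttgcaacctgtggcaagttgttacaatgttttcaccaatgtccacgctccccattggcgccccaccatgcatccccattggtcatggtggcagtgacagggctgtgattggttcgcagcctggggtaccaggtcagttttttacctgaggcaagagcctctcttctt
Taf7l: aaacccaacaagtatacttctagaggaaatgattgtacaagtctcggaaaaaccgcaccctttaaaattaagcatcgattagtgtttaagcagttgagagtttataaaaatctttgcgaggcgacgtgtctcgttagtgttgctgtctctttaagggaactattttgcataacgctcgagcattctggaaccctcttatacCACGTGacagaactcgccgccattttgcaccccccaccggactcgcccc
Mael: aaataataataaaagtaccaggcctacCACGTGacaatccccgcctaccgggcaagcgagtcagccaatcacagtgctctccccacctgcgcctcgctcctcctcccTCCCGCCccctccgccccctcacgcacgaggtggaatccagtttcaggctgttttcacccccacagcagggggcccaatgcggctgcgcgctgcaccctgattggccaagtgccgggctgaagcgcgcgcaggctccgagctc
Tdrd9: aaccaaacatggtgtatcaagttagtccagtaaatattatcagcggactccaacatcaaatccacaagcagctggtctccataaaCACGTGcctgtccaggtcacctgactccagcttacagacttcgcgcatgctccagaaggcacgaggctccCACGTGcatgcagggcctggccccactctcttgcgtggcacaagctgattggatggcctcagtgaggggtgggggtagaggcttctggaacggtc
CACGTG starts 49 bases before the start in Taf7l, 223 bases before it in Mael, and 165 and 95 bases before it in Tdrd9. Mael also holds an E2F-type match 143 bases before its start. These letters are in none of the 3 windows of Tex101, Dazl and Stra8. A promoter was found in the RefSeq table for 39 of the 47 listed genes (83.0%). CACGTG was in 15 of these 39 windows (38.5%), in 9.74% of the windows of 11706 tested genes, and in 6.86% of the windows of all 27025 genes of the table. Among all genes called higher, CACGTG was in 179 of 1856 windows (9.64%), a share near that of tested genes. For genes called higher from below 1 CPM the share was 8.7%. The E2F-type letters were in 8 of 39 (20.5%), in 20.1% of the windows of tested genes, and in 11% of all windows, so that their share in the list was that of tested genes. A window was found for only 71.2% of tested genes, so these shares do not cover all of them. The 2 sets of letters do not overlap each other, and a match is a description of the sequence, not a site.

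Among genes that set the germ cell programme, Dazl, which encodes an RNA-binding protein needed for entry into gametogenesis, had 13.3, 11.6 and 10.8 CPM in floxed and 1137, 1139.7 and 1104 CPM in knockout libraries. It had a log2 fold change of 6.56 (SE 0.039) and the lowest adjusted p of all genes tested (7.86e-24, edgeR). Stra8, which encodes the retinoic acid-responsive gatekeeper of meiosis, had 6.51, 8.15 and 7.94 CPM in floxed and 526, 533 and 514 CPM in knockout libraries, giving a log2 fold change of 6.13. Ddx4, the germ cell RNA helicase VASA, had 23.3, 25.4 and 24.8 CPM in floxed and 501, 489 and 481 CPM in knockout libraries, giving a log2 fold change of 4.33. For these 3 genes every knockout library lay far above every floxed library. Taf7l, a testis form of a TFIID subunit, rose from 2.89 ± 0.329 CPM to 323 ± 12.7 CPM (SD, n = 3), and Brdt, a bromodomain protein of the testis, from 1.11 ± 0.505 CPM to 64.5 ± 1.44 CPM (SD, n = 3).

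Genes of meiotic chromosomes rose over a wide range of folds. Spo11, which encodes the enzyme that makes meiotic DNA breaks, had no count in the 3 floxed libraries and 4.46, 5.87 and 4.44 CPM in knockout libraries, at least 29.2-fold higher against a floor of 3 counts per floxed library. Sycp1 rose from 8.53 ± 0.488 CPM to 223 ± 8.74 CPM, Sycp2 from 1.58 ± 0.349 CPM to 143 ± 4.64 CPM and Sycp3 from 4.11 ± 0.657 CPM to 123 ± 7.92 CPM (SD, n = 3 each). These 3 encode parts of the synaptonemal complex that joins homologous chromosomes. Hormad1, which encodes a protein of unsynapsed axes, rose from 3.38 ± 0.665 CPM to 287 ± 10.8 CPM, and Mei1, a gene needed for meiotic breaks, from 0.545 ± 0.104 CPM to 70.5 ± 0.904 CPM (SD, n = 3 each). The meiotic cohesin genes Smc1b (6.03), Stag3 (2.75) and Rec8 (1.42) all rose. The recombinase gene Dmc1 rose from 27.1 ± 1.73 CPM to 94.9 ± 2.99 CPM (SD, n = 3) and had a log2 fold change of 1.81. Prdm9, which encodes the methyltransferase that places recombination hotspots, rose from 2.14 ± 0.334 CPM to 23.5 ± 1.33 CPM (SD, n = 3).

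Genes of the piRNA pathway, which silences transposons in the male germ line, also rose. Tdrd9 had 0.41, 0.52 and 0.481 CPM in floxed and 161, 155 and 155 CPM in knockout libraries, giving a log2 fold change of 8.37 (edgeR adjusted p = 6.12e-22). Mael rose from 3.32 ± 0.261 CPM to 252 ± 11.2 CPM, Mov10l1 from 8.39 ± 1.57 CPM to 428 ± 4.8 CPM and Tdrd1 from 2.87 ± 0.183 CPM to 77.8 ± 0.614 CPM (SD, n = 3 each). Piwil2 (3.13) and Gtsf1 (1.81) were called at smaller folds from higher levels in floxed cells, and Asz1 had too few counts to be tested. Tex101, which encodes a surface protein of germ cells, had 0.205, 0.173 and 0.12 CPM in floxed and 213, 211 and 212 CPM in knockout libraries, the largest log2 fold change of the list at 10.24. Tuba3b, a testis tubulin gene whose near-identical copies can share reads, rose from 0.0193 ± 0.0334 CPM to 24.7 ± 2.17 CPM (SD, n = 3).

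Sohlh2 (0.96), Tex14 (0.58), Nanos3 (0.56), Syce2 (0.25) and Dnd1 (0.04) were not called. The first 4 lay higher in all 3 knockout libraries but under the fold threshold, and Sohlh2 was called with total-count scaling, at 1.23, and with 10 counts in every library, at 1.02. Dnd1 had 9.58, 8.21 and 10.3 CPM in floxed against 9.95, 10.3 and 8.63 CPM in knockout libraries, so that its groups overlapped. Prdm1, which encodes BLIMP1, a factor of primordial germ cell specification, had 19.3, 16 and 18 CPM in floxed and 1.4, 2.2 and 2.1 CPM in knockout libraries. It fell with a log2 fold change of −3.22 (edgeR adjusted p = 7.60e-13), the only member of the list to do so.

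**Figure D3:**
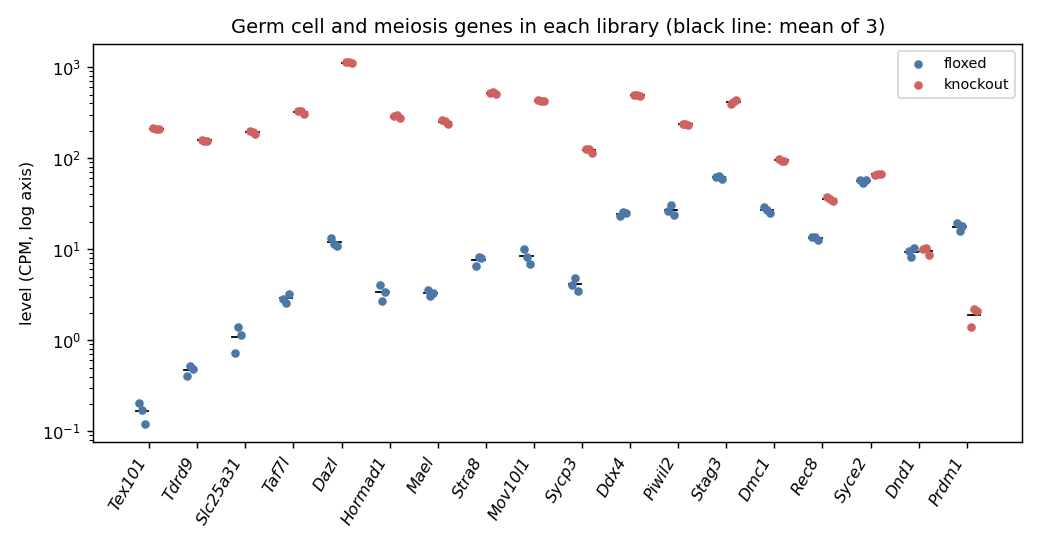
Level of 18 germ cell and meiosis genes in each of 3 floxed (blue) and 3 knockout (red) libraries, in CPM on a log axis, with the mean of 3 as a black line, ordered by log2 fold change. From Tex101 to Rec8 all knockout libraries lie above all floxed libraries, Dnd1 overlaps, and Prdm1 lies lower in the knockout.

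Genes of the 2-cell-like state, a rare state of ESC cultures with a programme of the early embryo, were at or near 0 in floxed cells. Of 28 listed, 21 were tested and all 21 were called higher, but 20 of them passed the filter through the knockout libraries alone and could only rise, and 7 were too low to be tested. The median fitted log2 fold change was 8.12, and it was 4.77 with the 10 genes that had no count in floxed cells set to their lower bound. Summed over the list, the level was 5.23 to 6.82 CPM in floxed and 131 to 145 CPM in knockout libraries. Zscan4f, of the cluster that marks this state, had 0, 0 and 0.06 CPM in floxed and 19.6, 19.6 and 22.1 CPM in knockout libraries. Usp17la had no count in floxed cells and 6.33, 5.87 and 6.15 CPM in knockout libraries, at least 36.3-fold higher, and Gm8300 likewise had none and then 4.61, 5.04 and 5.9 CPM, at least 30.8-fold higher. Duxf3, from the array that encodes the pioneer factor DUX, went from no count to 0.829, 1.52 and 0.976 CPM, at least 6.58-fold higher. Zscan4, Usp17l and Dux are families of near-identical copies, so the split of reads among members is uncertain. Ddit4l, the only member that passed the filter in floxed cells, had 5.23, 5.67 and 4.69 CPM in floxed and 13, 13.8 and 14.2 CPM in knockout libraries, giving a log2 fold change of 1.40.

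Primitive endoderm genes were mostly lower. Of 21 tested, 11 were called lower and 3 higher, with a median of −1.01, and the summed level went from 1627 to 1654 CPM in floxed to 605 to 617 CPM in knockout libraries. Cubn, which encodes an endocytic receptor of the visceral endoderm, had 17.1, 19.8 and 21.6 CPM in floxed and 0.518, 0.538 and 1.17 CPM in knockout libraries, giving a log2 fold change of −4.69 (edgeR adjusted p = 1.93e-13). Sox7 fell from 5.21 ± 0.45 CPM to 0.562 ± 0.321 CPM (SD, n = 3). The basement membrane genes Lama1 (−2.74), Col4a1 (−2.48) and Lamc1 (−1.69) fell, the last from 999 ± 15.7 CPM to 310.4 ± 4.18 CPM (SD, n = 3). Lamc1 alone thus made up most of the summed level of the list in floxed cells and most of its fall. The defining factors Gata4 (−0.49) and Gata6 (−0.64) were at 5.48 ± 0.26 CPM and 2.43 ± 0.291 CPM in floxed cells (SD, n = 3) and were not called. Foxa2, a factor of definitive and visceral endoderm, rose from 0.11 ± 0.047 CPM to 1.08 ± 0.142 CPM (SD, n = 3) and passed the filter through the knockout libraries alone. Sox17 was called lower at −1.01, but its groups overlapped, and it lost the call under 10 of the settings tried, at −0.66 when floxed library 1 was left out.

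Trophoblast genes gave 2 calls higher and 5 lower among 19 tested of 26 listed, beside 18.5% and 11.4% of all tested genes. The 2 calls higher became 4 without floxed library 1, floxed library 3 or knockout library 3, and 5 without floxed library 2, while those lower were 5 or 6 with any 1 library left out. Eomes fell from 7.23 ± 0.506 CPM to 0.781 ± 0.245 CPM (SD, n = 3), Krt8, an epithelial keratin gene, from 33.2 ± 0.366 CPM to 3.99 ± 0.375 CPM (SD, n = 3), and Tead4, a factor of the trophectoderm, from 137 ± 0.386 CPM to 33.1 ± 1.17 CPM (SD, n = 3). Esx1, an X-linked placental homeobox gene, rose from 1.05 ± 0.0271 CPM to 6.81 ± 0.233 CPM (SD, n = 3). The defining markers Cdx2, Elf5, Gata3 and Hand1 had too few counts to be tested.

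Of 20 mesoderm and gastrulation genes, 11 were tested, and 6 were called higher and 2 lower. Of the 11, 4 passed the filter through the knockout libraries alone, and the other 7 gave 2 calls in each direction with a median of −0.06. Snai1 rose from 1.71 ± 0.11 CPM to 6.24 ± 0.114 CPM (SD, n = 3) and Snai2 from 0.239 ± 0.103 CPM to 1.83 ± 0.451 CPM (SD, n = 3), and both encode repressors of epithelial genes. Meis1, a homeobox gene, rose from 1.06 ± 0.103 CPM to 5.73 ± 1.05 CPM (SD, n = 3). Bmp4, which encodes a ligand that patterns mesoderm, had 92.6, 94.2 and 95.2 CPM in floxed and 26.1, 29.7 and 29.6 CPM in knockout libraries, and fell with a log2 fold change of −1.72. Brachyury (T) had too few counts to be tested.

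Of 20 neural genes, 14 were tested, and 6 were called higher and 3 lower, beside 18.5% and 11.4% of all tested genes. Of the 14, 4 passed the filter through the knockout libraries alone. The other 10 gave 2 calls higher and 3 lower, with a median of −0.81. Pax6, a factor of eye and forebrain, had 0.922, 0.173 and 0.361 CPM in floxed and 15, 16.3 and 13.5 CPM in knockout libraries, giving a log2 fold change of 4.87. Stmn2, a gene of neurites, rose from 6.87 ± 0.563 CPM to 24.9 ± 1.52 CPM (SD, n = 3). Sox1, the earliest factor of neural progenitors, fell from 27.3 ± 2.28 CPM to 5.82 ± 0.557 CPM (SD, n = 3), and Gbx2, a factor of both naive ESCs and hindbrain, from 84 ± 1.58 CPM to 18.8 ± 0.898 CPM (SD, n = 3).

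Feeder fibroblasts were the other cell type these cultures could hold. Of 22 fibroblast genes, 11 were tested, 1 was called higher and 5 lower, and the summed level was 175 to 187 CPM in floxed and 103 to 112 CPM in knockout libraries. Some fibroblast markers were at or near 0: Col1a2 had 2 and 4 counts over the 3 floxed and the 3 knockout libraries, Col3a1 had 1 and 14, Lum 0 and 3, Dcn 1 and 4, and Postn 0 and 2. Other markers had enough counts to be tested. Thy1 fell from 5.12 ± 0.254 CPM to 0.764 ± 0.124 CPM and Mmp2 from 9.32 ± 1.7 CPM to 2.11 ± 0.178 CPM (SD, n = 3 each). Fbln2 fell by 1.61 on the log2 scale and Col6a1 rose by 3.23, to 2.34 ± 0.299 CPM (SD, n = 3). Col1a1 and Fbln1 were also called lower. With total-count scaling both lost the call, at −0.86 and −0.97, and Col1a1 also without knockout library 3, at −0.94.

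Of 44 imprinted genes, which are expressed from 1 parental allele, 40 were tested. Of these, 13 were called lower and 3 higher, beside 11.4% and 18.5% of all tested genes. With total-count scaling 6 were lower and 4 higher, Meg3 was at −0.92 and not called, and the median of the list turned from −0.15 to 0.12. On chromosome 12, 4 genes of the Dlk1-Dio3 region fell: Meg3 from 205 ± 0.902 CPM to 90.2 ± 4.64 CPM, Rian from 214 ± 7.16 CPM to 62.4 ± 0.979 CPM, Mirg from 8.79 ± 0.798 CPM to 1.92 ± 0.654 CPM and Rtl1 from 2.06 ± 0.634 CPM to 0.403 ± 0.196 CPM (SD, n = 3 each). Meg3, Rian and Mirg are maternally expressed noncoding RNAs and Rtl1 a paternally expressed gene. Rtl1 lies opposite to a transcript of the maternal allele, and since the strand setting of the counting is not given its reads cannot be told apart from those of that transcript. Dlk1, the paternally expressed gene at the end of the region, was at −0.02 with overlapping groups, and its direction changed with total-count scaling and when floxed or knockout library 3 was left out. Phlda2 had 56.7, 56 and 58.6 CPM in floxed and 7.36, 7.34 and 7.66 CPM in knockout libraries, the largest fall of the list (−2.94, edgeR adjusted p = 1.74e-17). Grb10, a growth inhibitor gene, had 385, 383 and 387 CPM in floxed and 100.5, 100.2 and 100.2 CPM in knockout libraries, giving a log2 fold change of −1.94. Zdbf2 fell from 659 ± 7.43 CPM to 213 ± 1.05 CPM (SD, n = 3). Peg12 (1.76), Ndn (1.27) and H19 (1.19) were the 3 calls higher, all from under 10 CPM, and Igf2, the paternal partner of H19, was at 0.28.

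Of 25 genes of p53 response and cell cycle arrest, 24 were tested, with a median of 0.51. Of these, 9 were called higher and 2 lower, beside 18.5% and 11.4% of all tested genes. Cdkn1a, which encodes the inhibitor p21, had 28.2, 29.1 and 28.7 CPM in floxed and 101, 101 and 101 CPM in knockout libraries, giving a log2 fold change of 1.82 (SE 0.039, edgeR adjusted p = 3.01e-17). Plk2 rose from 17.7 ± 1.75 CPM to 146 ± 1.22 CPM, Eda2r from 46.7 ± 0.943 CPM to 173 ± 4.12 CPM and Mdm2, which encodes the ubiquitin ligase of p53, from 121 ± 1.72 CPM to 295 ± 9.16 CPM (SD, n = 3 each). The neighbours Cdkn2a (0.885 ± 0.237 CPM to 9.96 ± 0.295 CPM) and Cdkn2b (0.188 ± 0.0394 CPM to 1.34 ± 0.104 CPM), which encode inhibitors of CDK4 and CDK6, rose as well. Pmaip1, which encodes the apoptosis inducer NOXA, had 299, 304 and 305 CPM in floxed and 107, 104 and 95.8 CPM in knockout libraries, and fell by 1.56 on the log2 scale. Gdf15 was called lower at −1.13, and at −0.86 with total-count scaling was not.

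Of 30 cell cycle genes, 1 was called higher and 3 lower, beside 18.5% and 11.4% of all tested genes, with a median of −0.48. Ccnd3, which encodes cyclin D3, had 772, 805 and 797 CPM in floxed and 109, 111 and 116 CPM in knockout libraries, giving a log2 fold change of −2.82 (edgeR adjusted p = 5.22e-22). Of the cyclin E genes, Ccne1 fell from 144 ± 5.97 CPM to 37.8 ± 0.879 CPM and Ccne2 rose from 19.6 ± 0.862 CPM to 41.7 ± 1.39 CPM (SD, n = 3 each). Cdt1, a replication licensing gene, was called lower at −1.03 and lost the call at −0.76 with total-count scaling.

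Interferon and nucleic acid sensing genes gave calls in both directions. Of 32 listed, 23 were tested, and 7 were called higher and 4 lower, beside 18.5% and 11.4% of all tested genes. Of the 23, 6 passed the filter through the knockout libraries alone. Of the 17 that passed in floxed cells, 1 was called higher and 4 lower. Usp18 had no count in floxed cells and 1.92, 2.59 and 1.66 CPM in knockout libraries, at least 12.2-fold higher. Irf7 rose from 0.116 ± 0.0646 CPM to 1.9 ± 0.381 CPM and Ifi27 from 0.0594 ± 0.0602 CPM to 1.08 ± 0.284 CPM (SD, n = 3 each). Zbp1, a sensor of Z-form nucleic acids, fell from 1.39 ± 0.449 CPM to 0.0815 ± 0.102 CPM and Ifitm1 from 132 ± 1.47 CPM to 46.6 ± 2.27 CPM (SD, n = 3 each).

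In the Rhox cluster of reproductive homeobox genes on the X chromosome, 5 of 32 genes were tested and 3 were called higher. Of the 5, 2 passed the filter through the knockout libraries alone, and the other 3 gave 1 call and a median of −0.07. Rhox13 had 0.256, 0.058 and 0.18 CPM in floxed and 31.7, 29.8 and 30.0 CPM in knockout libraries, giving a log2 fold change of 7.45. Rhox5 rose from 2.29 ± 0.417 CPM to 5.62 ± 0.473 CPM and Rhox10 from 0.133 ± 0.0418 CPM to 1.35 ± 0.0466 CPM (SD, n = 3 each). Of 58 clustered protocadherin genes, which encode adhesion proteins of neurons, 26 were tested, 8 were called higher, and 2 of these 8 were among the 20 that passed the filter in floxed cells. Pcdhb14 rose from 0.286 ± 0.118 CPM to 1.77 ± 0.335 CPM and Pcdhga3 from 8.2 ± 0.891 CPM to 19.3 ± 1.23 CPM (SD, n = 3 each). The γ genes share their last exons, so counts of single members are uncertain. Pcdhga6 was at 1.53, and Pcdhga4 (1.06) lost its call without knockout library 1, at 0.90.

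Glutathione genes gave more calls lower than higher. Of 20 glutathione and oxidative stress genes tested, 8 were called lower and 2 higher, beside 11.4% and 18.5% of all tested genes. Their median was −0.75. Gpx2, which encodes a glutathione peroxidase, had 6.81, 7.63 and 6.32 CPM in floxed and 0.259, 0.196 and 0.146 CPM in knockout libraries, giving a log2 fold change of −5.07. The glutathione transferase genes Gstt1 (−3.63), Gstm2 (−3.20) and Gstm1 (−2.09) fell, the last from 32.2 ± 1.4 CPM to 7.55 ± 0.456 CPM (SD, n = 3). Hmox1, which encodes heme oxygenase 1, rose from 68.5 ± 2.19 CPM to 165 ± 4.8 CPM and Gpx8 from 1.98 ± 0.322 CPM to 6.91 ± 0.607 CPM (SD, n = 3 each). Of 17 actin and contractile genes tested, 4 were called lower and 3 higher, beside the same shares of all tested genes. Tagln2 had 478, 507 and 512 CPM in floxed and 52.9, 50.8 and 51.2 CPM in knockout libraries, giving a log2 fold change of −3.27, and Tpm2 was at −1.96. Ccn1 (3.17) and Ccn2 (1.78), both targets of YAP, rose.

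The next 2 lists were chosen after their values were seen. Of 18 glycolysis genes, 13 were called lower and the other 5 were not called, with a median of −1.37, and with total-count scaling 11 were lower. Ldha, which encodes lactate dehydrogenase A, had 1354, 1367 and 1363 CPM in floxed and 287, 283 and 296 CPM in knockout libraries, giving a log2 fold change of −2.24 (edgeR adjusted p = 3.87e-22). Pfkp, a phosphofructokinase gene, fell from 314 ± 1.91 CPM to 53.3 ± 1 CPM, Pgk1 from 1010.5 ± 6.06 CPM to 206 ± 2.92 CPM, Aldoa from 1755 ± 22.6 CPM to 402 ± 6.55 CPM and Gapdh, often used as a reference gene, from 4337 ± 52.6 CPM to 1452 ± 53 CPM (SD, n = 3 each). The glucose transporter gene Slc2a1 was at −0.83 and was not called. Of 87 ribosomal protein genes tested, 54 were called lower and 1 higher, with a median of −1.11, and with total-count scaling 30 were lower and 2 higher. Their summed level went from 69660 to 70138 CPM in floxed to 31294 to 31522 CPM in knockout libraries. Rps21 fell from 248 ± 12.3 CPM to 65.5 ± 4.33 CPM and Rplp1 from 1152 ± 28.2 CPM to 314 ± 9.88 CPM (SD, n = 3 each), while Rps29 was at −1.82 and Rps25 at −1.81. Rpl10l, a testis copy of Rpl10 that is also in the germ cell list, was the 1 call higher, from 10.9 ± 1.53 CPM to 66.6 ± 1.65 CPM (SD, n = 3). Ribosomal protein genes have many processed pseudogenes, which can take a share of their reads.

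Library composition was read from RNA that poly(A) selection does not keep and from the mitochondrial genome. Of 22 non-polyadenylated RNA genes matched, 8 were tested and 4 called higher. Of the 8, 6 passed the filter through the knockout libraries alone, so that their calls could only be rises, and the other 2 gave no call. Without floxed library 2 the calls were 2. The summed level was 7.16 to 11.2 CPM in floxed and 14.6 to 16.8 CPM in knockout libraries. Of 15 mitochondrial genes tested, 3 were called lower, beside 11.4% of all tested genes. Their summed level was 24924 to 25188 CPM in floxed and 17506 to 18399 CPM in knockout libraries. The calls were mt-Nd3 (−1.78), mt-Co3 (−1.34) and mt-Nd1 (−1.0). The knockout libraries differed in mt-Co3 (176, 113 and 28.8 CPM), which lost its call without knockout library 3, at −0.89, and was not called by DESeq2 (adjusted p = 0.0913) or in a joint fit of all libraries (edgeR adjusted p = 0.284). The gene mt-Nd1 lay at the fold threshold and lost its call without knockout library 3 (−0.97), with RLE size factors (−0.99), with 10 counts in every library (−0.94), in the joint fit (−0.9952) and with total-count scaling (−0.74), so that 1 of the 3 calls, mt-Nd3, kept its call under these alternatives. The part of library composition in the group differences was not tested.

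**Figure D4:**
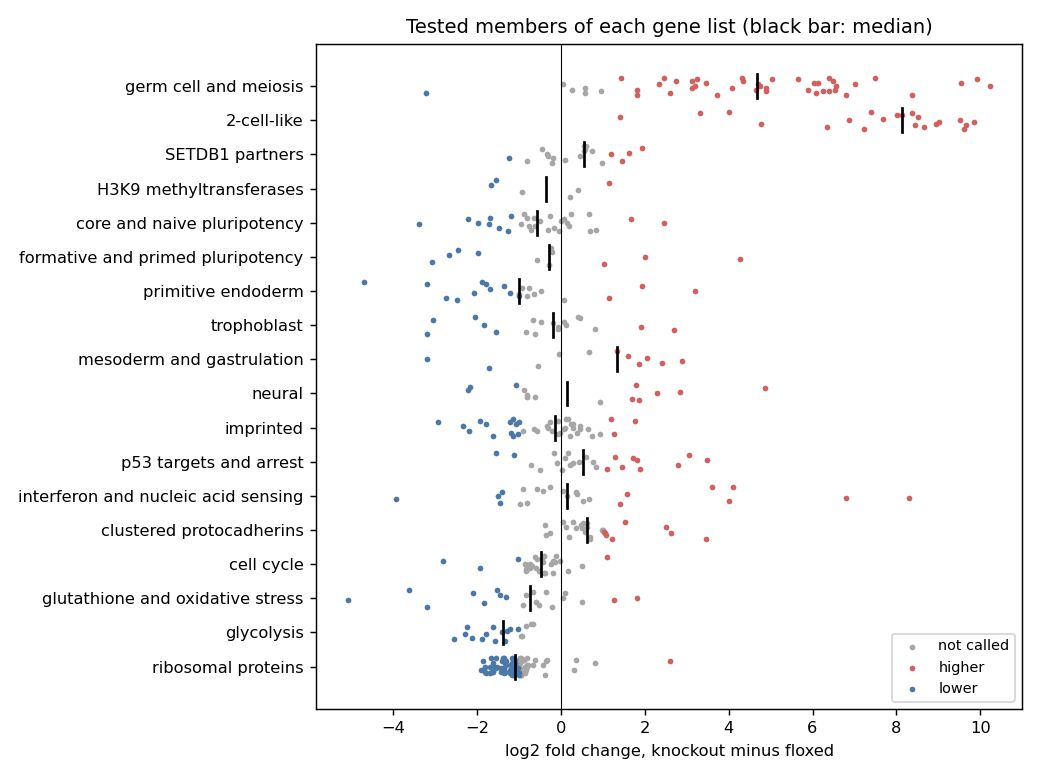
Log2 fold change (knockout minus floxed) of each tested member of 18 gene lists, with members called higher in red, called lower in blue and not called in grey, and the median of each list as a black bar. The medians of germ cell and meiosis (4.68) and 2-cell-like genes (8.12, or 4.77 with lower bounds for genes without counts in floxed cells) lie furthest to the right, and those of glycolysis (−1.37), ribosomal protein (−1.11) and primitive endoderm genes (−1.01) furthest to the left.

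The 10 largest fitted rises, among called genes with at least 5 CPM in the higher group, were of genes at or near 0 in floxed cells. Lypd4, which encodes a LY6/PLAUR-domain protein, had no count in floxed cells and 27.4, 27.8 and 28.6 CPM in knockout libraries, at least 166-fold higher. Tex101, a LY6/PLAUR-domain gene as well, lies at chr7:24668007-24676675 and Lypd4 at chr7:24864620-24869941 on chromosome 7. Ccnb3, which encodes a meiotic cyclin, rose from 0.241 ± 0.114 CPM to 175 ± 3.99 CPM, and Nxf2, an X-linked RNA export gene of the germ line, from 0.0512 ± 0.0887 CPM to 37.6 ± 0.93 CPM (SD, n = 3 each). Lingo2, which encodes a neuronal surface protein, rose from 0.0401 ± 0.0695 CPM to 26.2 ± 1.61 CPM (SD, n = 3). Klk1b24, a kallikrein gene, had 0.666, 0 and 0 CPM in floxed and 148, 135 and 142 CPM in knockout libraries, and is one of a family of close copies. Cbx3-ps7, listed as a pseudogene of Cbx3, rose from 0.0171 ± 0.0296 CPM to 25.4 ± 1.31 CPM (SD, n = 3), and reads of the pseudogene and of its parent gene may not be told apart. Tuba3b, Usp17la and Zscan4f, described above, complete the 10 largest rises.

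The 10 largest falls started from means of 5.16 to 24.1 CPM in floxed cells. Ndufa4l2, a hypoxia-responsive mitochondrial gene, had 24, 23.7 and 24.5 CPM in floxed and 0.518, 0.538 and 0.293 CPM in knockout libraries, giving a log2 fold change of −5.73 (SE 0.15, edgeR adjusted p = 3.71e-16). Apela, which encodes the peptide ligand ELABELA, fell from 19.6 ± 1.19 CPM to 0.578 ± 0.262 CPM, Plac8 from 6.41 ± 0.336 CPM to 0.167 ± 0.0351 CPM, and Nupr1, a stress-responsive transcription cofactor gene, from 14.6 ± 0.827 CPM to 0.46 ± 0.24 CPM (SD, n = 3 each). Pou2f3, a POU-domain factor gene, was at −4.99 and Insyn2b at −4.65. The neuronal genes Grin1 (−4.93), which encodes an NMDA receptor subunit, and Scn3a (−4.55), which encodes a sodium channel, also fell. Gpx2 and Cubn complete the 10 largest falls.

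The study also held Hp1 triple knockout cells, which lack HP1α, HP1β and HP1γ, and the wild-type libraries labelled NK as their control. These came from ESCs that already lacked HP1α and HP1β and carried floxed Hp1γ, were assayed after Cre transfection, and share no control with the Setdb1 comparison. Their counts come from another deposited table. In these cells 4401 of 17501 genes were called higher (25.1%) and 2999 lower (17.1%). Among 15468 genes tested in both comparisons, 2497 were higher in Setdb1 Δ/Δ cells and 3201 in the triple knockout. They shared 1470 genes, which are 58.9% of the former and 45.9% of the latter, and 192 of the 2497 (7.69%) were called lower in the triple knockout. Among lower genes, 1769 and 2742 were called and 791 shared, which are 44.7% and 28.8%, and 130 of the 1769 (7.35%) were called higher in the triple knockout. Across the 15468 genes the log2 fold changes had a Pearson's r of 0.59 and a Spearman's rho of 0.47, as a description over genes, which are not independent replicates and share the library of their sample.

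The difference between both effects was tested over 12 libraries (interaction term, edgeR). Of 18569 genes, the Setdb1 effect was called above the triple knockout effect in 3060 (16.5%) and below it in 2861 (15.4%). Of 46 germ cell and meiosis genes, 34 were above and 1 below. With 10 counts in every library 24 were above. In the Setdb1 comparison 11 members of the list had passed the filter through the knockout libraries alone. The list was drawn up with earlier results of these data known. The list rose in the triple knockout as well, with a median of 1.57. Of 43 tested there, 29 were called higher and 4 lower, beside 25.1% and 17.1% of all genes tested there. Dazl had a log2 fold change of 1.85 in the triple knockout, a difference of 4.74 (SE 0.17, edgeR adjusted p = 9.74e-17). Stra8 was at 0.82 and Tex101 at 4.99 in the triple knockout, differences of 5.33 and 5.28. Stag3 was at 2.90 in the triple knockout and its difference of −0.13 was not called. Of 21 differences in 2-cell-like genes, 0 were called by edgeR, 0 had an unadjusted p under 0.05, and DESeq2 called 0 of 27. In the triple knockout 20 of 20 tested were called higher, and most were at or near 0 in both controls, so that wide differences were not detectable at this depth.

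Primitive endoderm genes differed mostly the other way. Of 22 primitive endoderm genes, the Setdb1 effect was below in 10 and above in 1. In the triple knockout itself the list moved in both directions. Of 19 tested there, 7 were called higher and 5 lower, beside 25.1% and 17.1% of all genes tested there, with a median of −0.31. Gata4 had a log2 fold change of 3.52 in the triple knockout and −0.47 in Setdb1 Δ/Δ cells, a difference of −3.99 (edgeR adjusted p = 3.30e-13). Gata6 (−4.12) and Sox17 (−3.97) differed likewise, and Cubn, at 1.48 in the triple knockout, by −6.15. Of 30 pluripotency genes, the Setdb1 effect was above in 11 and below in 2. Sox2 was at −1.59 in the triple knockout (difference 1.75), Nanog at −1.5 (difference 1.46) and Lefty1 at −6.68 (difference 4.99). The 2 below were Klf5 (−1.41) and Tbx3 (−2.00). For Pou5f1 the effects were −0.70 and −1.10, and the difference of 0.40 was not called. Of the 3 HP1 genes, Cbx1, itself deleted in the triple knockout, was called above (2.70). Among methyltransferases Suv39h2 was below (−2.54), at 0.88 in the triple knockout, and Ehmt1 (1.86) and Suv39h1 (1.02) were above.

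Single genes differed by more. Usp26, an X-linked testis gene, had means of 0.896 CPM in floxed and 28.3 CPM in Setdb1 Δ/Δ cells, and 183 CPM in wild-type NK and 7.23 CPM in the triple knockout, scaled over the 12 libraries. The difference was 9.64 on the log2 scale (SE 0.13, edgeR adjusted p = 5.75e-24), and both sets of controls lay far apart from each other. Il18, which encodes a cytokine, was above by 8.79 and Olfr912 by 7.74. Rerg, which encodes a RAS-like protein, had means of 0.294 and 11 CPM in wild-type NK and the triple knockout, against 3.91 and 1.3 CPM in floxed and Setdb1 Δ/Δ cells, a difference of −6.77. Fam174c, H2-M2, Tdg-ps2, mt-Nd3 and Spo11 were also among the 5 largest differences in a direction, but each was at 0 in 1 of the 4 groups, so that the size of its fitted difference is no measurement. In the table of the triple knockout, 10 genes had no count in any of 6 libraries while they had at least 10 CPM in both Setdb1 groups, mt-Atp6 among them. The cause was not tested.

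**Figure D5:**
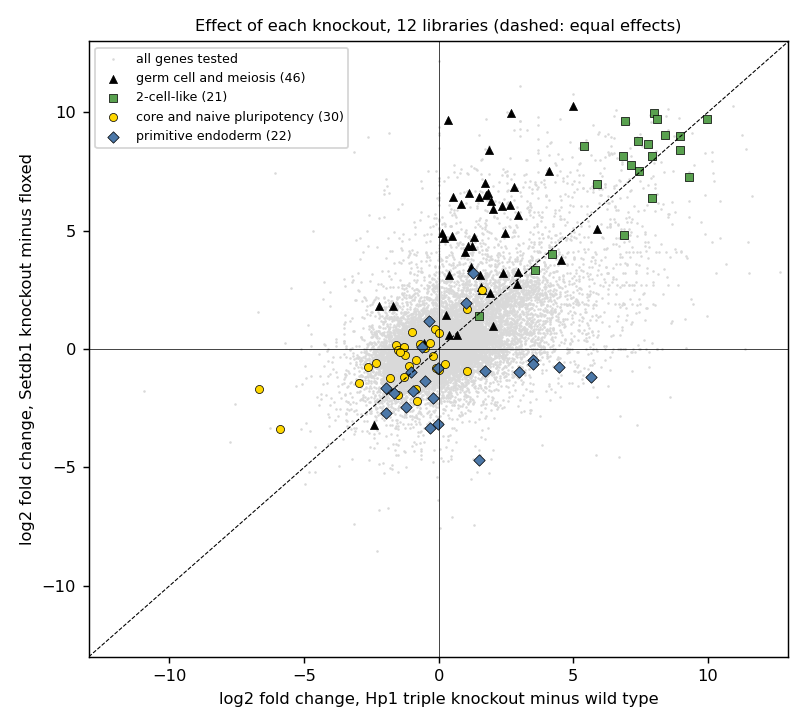
Log2 fold change in Setdb1 Δ/Δ cells against floxed cells (vertical axis) and in the Hp1 triple knockout against wild-type NK (horizontal axis) for each of 18569 genes tested over 12 libraries, with 4 gene lists marked and the line of equal effects dashed. Germ cell genes (black) lie mostly above the line, primitive endoderm genes (blue) mostly at or below it, and 2-cell-like genes (green) on both sides of it.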

How the data were processed

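Libraries were 150 bp paired-end reads of TruSeq RNA libraries. The processing notes name TopHat2 2.1.1, RSEM, edgeR and GRCm38.p5. The authors deposited expected counts per gene, estimated by RSEM and not normalized, and these were rounded to whole numbers. The strand setting is not given in the sources used here, and the labels and the study's methods name different TruSeq kits. The 48 columns of TPM per sample, 16 columns of mean TPM and the authors' fold changes and p-values were not used. Genes were placed with GENCODE M21 (55227 of 55487 matched).

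Counts were filtered with filterByExpr (minimum count 10), scaled by TMM and tested with edgeR 4.0.16 (R 4.3.3, limma 3.58.1). Calls needed an adjusted p under 0.05 and a log2 fold change above 1 or below −1. CPM are not corrected for gene length, so levels of different genes were not compared. The floor for genes without counts was 3 counts per floxed library. Replicate libraries differed by more than sampling noise (chi-square per degree of freedom 1.925 to 2.517).

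Named genes were the H3K9 methyltransferases, HP1 genes and Pou5f1, Sox2 and Nanog, the 10 largest rises and falls among called genes without overlap of groups and at least 5 CPM, up to 4 called members of each list with the largest change and at least 1 CPM, further members whose role the text needs, the 5 largest differences from the triple knockout each way, and up to 3 genes of a run. A few genes that this rule names are not reported here. Members and the 25 gene lists were chosen with earlier results of these data known, and 5 further lists after values were seen. Lists overlap in a few genes. Alternatives were DESeq2 1.42.0, RLE and total-count scaling, other filters, a replicate block, a joint fit and leaving out each library. DESeq2 was run on all genes with a count, so that its counts differ from the main ones in filter as well as in tool.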

Additional observations from a re-analysis of the deposited data

How the results depend on the processing

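Of 3247 values of 255 named genes, 3188 kept their direction and their side of the thresholds, 40 no longer passed, 7 newly passed and 12 changed direction, and 225 genes did so under no alternative. The genes nearly silent in floxed cells depended most on the processing: the 378 genes below 0.1 CPM that were called higher became 1010 with DESeq2, 1424 with no filter beyond 1 count, 0 with at least 10 counts in every library, 910 in a joint fit of all libraries, 445 to 594 when 1 library was left out (594 without floxed library 1 and 573 without floxed library 3), and 1193 when silent meant below 0.5 CPM. A filter of 10 counts in every library also left 1691 genes higher, 1 of the 2-cell-like genes higher, 2662 genes higher in the triple knockout and 2003 differences above, and removes by construction genes with no counts in floxed cells. Total-count scaling gave 1229 genes lower. An adjusted p alone, with no fold threshold, gave 6612 genes higher and 6378 lower, 9 pluripotency genes higher and 20 lower, and 6233 differences above and 5818 below. The chromosome 14 median was 0.327 with RLE size factors, 0.1859 with 10 counts in every library, and 0.3112 to 0.3587 with 1 library left out.

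Directions changed only for genes near 0. Total-count scaling moved the median of all tested genes up by 0.2669. Under it Nanog was at 0.2067, Dnmt1 at 0.1239, Utf1 at 0.0047, Pdgfrb at 0.0394, L3mbtl2 at 0.2349 and Dlk1 at 0.247. With 10 counts in every library, L3mbtl2 was at 0.0277 and Dlk1 at 0.0409. With 1 library left out, Dnd1 ran from −0.0598 to 0.1112 and Dlk1 from −0.1439 to 0.1028. The cause of the changes under the filter and with 1 library left out was not tested.

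With the replicate number as a block (replicate block), 3039 genes were higher and 1872 lower. Same-numbered libraries did not deviate together more than others. Their correlations were −0.0017, −0.0775 and −0.007 over 8885 genes, beside −0.0638 to 0.0739 for pairs with different numbers. A culture or batch shared between libraries was not tested. DESeq2, run without the filter, called 3687 higher and 2006 lower. With edgeR, no filter gave 4200 and 2324, and leaving out 1 library 3158 to 3311 and 1912 to 1975. A minimum mean of 20 counts in a group, added after the data were seen, gave 2721 and 1726. Depth limits genes under about 0.536 CPM, the filter's limit.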

Other observations

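The genes called higher were not spread evenly over the genome. On chromosome 14, 186 of 625 tested genes were called higher (29.8%) and the median log2 fold change was 0.32, while on the X chromosome 156 of 574 were (27.2%). With 10 counts in every library the chromosome 14 median was 0.186. How many genes of a chromosome passed the filter through the knockout libraries alone, and so could only rise, was not counted. Chromosome 11 had the lowest share of the autosomes, 13.7%. Runs of at least 5 neighbouring tested genes that were all called higher numbered 39 and held 266 genes, and 7 runs of genes called lower held 37 genes. The longest run lay at chr14:41550120-43715378 and held 18 genes, most of them with predicted-gene names. A run of 12 genes at chr14:44113360-45282725 was also mostly of such genes. Runs of this kind can share reads where the genes are copies of each other, as in the run of 13 genes at chr7:10794242-11938213 with the Zscan4 genes.

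Other runs held unrelated genes, members of 1 gene family or both. At chr1:166098148-167091302, 8 neighbours around Mael were all higher. They included Pogk, which encodes a zinc finger protein and rose from 2.71 ± 0.199 CPM to 67.7 ± 3.68 CPM, Dusp27, which encodes an atypical phosphatase-like protein and rose from 14.7 ± 0.67 CPM to 303 ± 8.07 CPM, and Gpa33, which encodes a cell surface antigen of gut epithelium (4.03) (SD, n = 3 each). At chr4:89274471-90997993, Cdkn2a, Cdkn2b, Dmrta1 and Zfp352 were among 5 higher neighbours. At chr3:107926334-108044894, the 6 glutathione transferase genes Gstm1, Gstm2, Gstm3, Gstm4, Gstm6 and Gstm7 formed 1 of the 2 longest lower runs, of 6 genes each, with Gstm3 at −4.02 and Gstm6 at −2.25. These 6 are of 1 family, and whether they share reads was not tested.

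The next 3 lists were chosen after their values were seen. In the Hoxb cluster at chr11:96194316-96347930, 6 of 12 listed genes were tested and all 6 were higher, each having passed the filter through the knockout libraries alone. Of the 12 listed, 10 were higher with no filter beyond 1 count and 0 with 10 counts in every library. Hoxb4, which patterns the hindbrain and is active in blood progenitors, rose from 0.0385 ± 0.0667 CPM to 2 ± 0.165 CPM, and Hoxb9 from 0.131 ± 0.122 CPM to 2.33 ± 0.55 CPM (SD, n = 3 each). Hoxb8 had no count in floxed cells and 1.24, 1.17 and 1.07 CPM in knockout libraries, at least 6.91-fold higher, and Hoxb5 was at least 6.1-fold higher. Of 1410 olfactory receptor genes and pseudogenes, 49 were tested and 37 were higher, 12 of them among the 20 that passed the filter in floxed cells. The olfactory receptors called higher were 60 with DESeq2, run without the filter, 77 with no filter beyond 1 count and 12 with 10 counts in every library. Olfr416-ps1 rose from 0.883 ± 0.0727 CPM to 206 ± 10.8 CPM (SD, n = 3). Of 593 vomeronasal receptor genes and pseudogenes, 45 were tested and 25 were higher, 10 of them among the 25 that passed in floxed cells. The vomeronasal receptors called higher were 44 with no filter beyond 1 count and 12 with 10 counts in every library. Vmn2r22, of the pheromone receptor families, rose from 0.191 ± 0.0772 CPM to 16.4 ± 0.929 CPM (SD, n = 3). The summed level of olfactory receptors went from 59.3 to 64.6 CPM in floxed libraries to 581 to 606 CPM in knockout libraries.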
